A study of Mus musculus with 10 samples.

Results

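Within the untreated and within the doxorubicin-treated RAW264.7 cells alike, the libraries numbered 4 and 5 differed from the libraries numbered 2 and 3. The 4 libraries numbered 4 and 5 carried more mRNA of the ATF4 stress pathway, of inflammatory chemokines and of immediate early genes. They carried less mRNA of endoplasmic reticulum chaperones, of sterol synthesis enzymes and of the E-type cyclins. The 8 libraries compared here, 4 in each set, are 8 of the 10 in the series. The libraries numbered 1, in each treatment 1 library, stood apart from both sets and were left out of every fit. The sets were chosen from the measured values themselves, because the expression profiles of 2 and 3, and of 4 and 5, deviated together. The difference between them is therefore given as a description, with no test and no p-value.

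RAW264.7 is a mouse macrophage-like line, long kept in culture, that arose from a tumour induced by a murine leukaemia virus. All libraries came from wild-type cells of this 1 line, grown in minimum essential medium with serum and antibiotics, and the labels give no passage, plating date or cell density. The untreated cells had medium alone for 24 h. The treated cells had medium with doxorubicin, added from a stock in dimethyl sulfoxide, so the drug and its solvent cannot be told apart. Doxorubicin is an anthracycline that intercalates into DNA and traps topoisomerase II, and the study used it to induce a senescence-associated secretory state. Its dose is given as 10 nM in the sample titles and as 100 nM in the design text, while the dilution in the protocol comes to 1000 nM, and no value here depends on it. Each treatment had 2 libraries in each set.

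Several of the gene groups that follow belong to pathways that sense the supply of nutrients and the state of the endoplasmic reticulum. In the integrated stress response, kinases that sense amino acid shortage, unfolded protein, haem loss or double-stranded RNA phosphorylate the initiation factor eIF2. Translation then falls as a whole while that of the transcription factor ATF4 goes up, and ATF4 drives genes for amino acid synthesis and uptake, for tRNA charging and for the factor CHOP. The unfolded protein response uses ATF6 and the spliced form of XBP1 to raise chaperones of the endoplasmic reticulum. Sterol synthesis is set by SREBP2, which leaves the endoplasmic reticulum when its cholesterol runs low.

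The values were FPKM, which corrects the fragments of a gene for its length and for how many mapped in that library, as deposited for 22186 genes, of which 9824 averaged at least 1 FPKM across these 8 columns and were tested. Bank1 lay just inside that limit at 1.00011 FPKM and Zfp182 just outside at 0.999909. The column sums ran from 338293 to 351325 FPKM. Sequencing depth could not be read from the values, so no counting error is given. Pearson correlations of log2(FPKM + 1) ran from 0.997 to 0.998 within a treatment and set, and from 0.986 to 0.994 between the sets of 1 treatment. Between the treatments of 1 set they ran from 0.988 to 0.995, a range that overlapped with that between the sets. Between the sets they were lower in medium (0.986 to 0.990) than with doxorubicin (0.991 to 0.994). All 10 macrophage markers examined were expressed in the 8 libraries. Lyz2, the lysozyme of myeloid cells, lay between 440 and 605 FPKM, and Adgre1, which encodes F4/80, between 135 and 172. The summed FPKM of 12 neutrophil markers, of which 4 were at 0 in all 8 libraries, lay between 1.64 and 2.34 in libraries 2 and 3 and between 1.34 and 2.13 in 4 and 5. The sums of 14 lymphocyte markers, 7 of them at 0, lay between 3.72 and 4.80 and between 4.44 and 4.68. Most of this was Cd79b, at 3.62 to 4.69 FPKM. The sums of 10 dendritic cell markers lay between 9.07 and 14.2 and between 9.18 and 10.8, mostly from Batf3. Those of 10 erythroid and megakaryocyte markers lay between 2.86 and 3.55 and between 2.16 and 4.22, mostly from Pf4. The sums of 12 epithelial and endothelial markers were at most 0.394 and 0.553. The sums of 10 fibroblast markers, 7 of them at 0, were at most 0.179 and 0.257. In libraries of whole cultures, a smaller share of cells that express a gene and less of its RNA per cell cannot be told apart.

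A gene was counted as separated when, in medium and with doxorubicin alike, both libraries of 1 set lay above both of the other. By this rule 2561 genes, 26.1% of those tested, were higher in libraries 4 and 5, and 1724, or 17.5%, were lower. Most of these differences were small. The split between higher and lower moved with scaling, to 2252 and 2210 under median-ratio scaling and 2404 and 2033 under upper-quartile scaling. A mean difference of at least 1.5-fold on the log2(FPKM + 1) scale was also required for a gene to be called, which left 112 genes higher (1.14%) and 18 lower (0.183%). The list counts that follow are to be read beside these shares. At 2-fold, 23 were higher and 0 lower. Tmem154 (0.587) and Manf (-0.60) lay just inside the 1.5-fold limit and Osgin2 (0.585) and Tubb4b (-0.58) just outside. With a pseudocount of 0.1 in place of 1, which lets genes of low FPKM differ more, 181 genes were called higher and 29 lower.

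The difference between the sets was of the same kind in both treatments. The difference in medium and the difference with doxorubicin share no library, and across the 9824 genes they correlated with a Pearson r of 0.69 and a Spearman rho of 0.68. Across the 5695 genes averaging 10 FPKM or more, the values were 0.73 and 0.72. Genes are not independent replicates, and all 4 libraries of a set could share a source, so these are descriptions. The sets were also chosen from these same values, so part of the agreement may come from that choice. The spread of the difference across genes was wider in medium (SD 0.24) than with doxorubicin (SD 0.19). Of the 112 genes called higher, 77 differed more in medium, with median differences of 0.84 in medium and 0.69 with doxorubicin. Of the 18 called lower, 16 differed more in medium, with medians of -0.88 and -0.48.

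**Figure D1:**
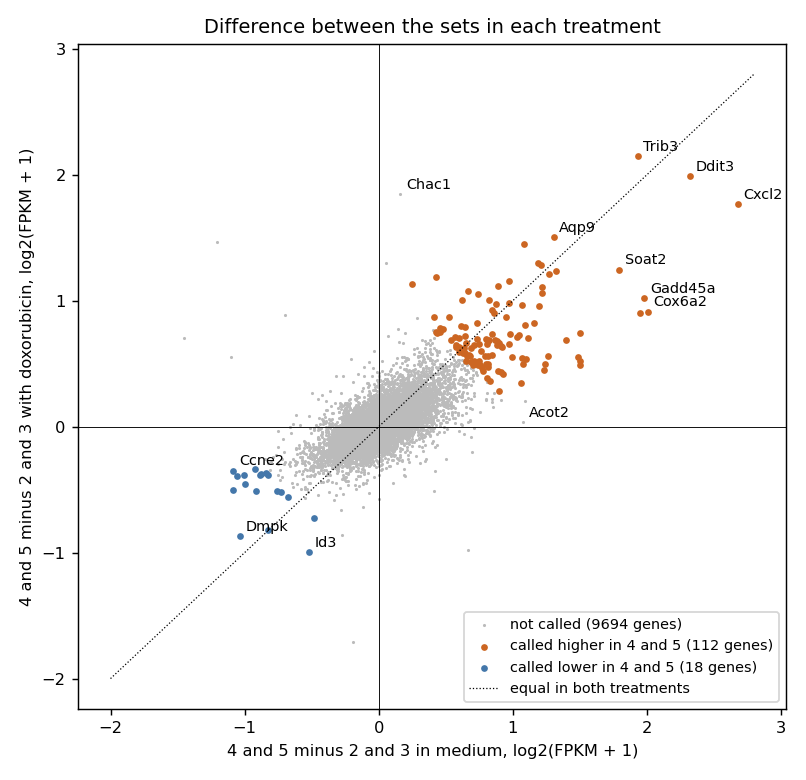
Difference between the sets (mean of libraries 4 and 5 minus mean of 2 and 3, log2(FPKM + 1)) in medium on the x axis and with doxorubicin on the y axis, 1 point per tested gene. The 112 genes called higher are orange and the 18 called lower blue, and the dotted line marks an equal difference. Of the 18 blue genes, 16 lie nearer to 0 on the y axis than on the x axis.

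Genes of the integrated stress response differed most as a group. All 31 tested genes of the 34 listed had a higher mean in libraries 4 and 5. Of these 31, 29 were separated and 16 were called, and the list median was 0.53 in medium and 0.64 with doxorubicin, against 0.03 and 0.03 over all tested genes. Ddit3 encodes CHOP, a factor that follows ATF4 and can drive cell death. Its values in medium were 20.1 and 28.2 FPKM in libraries 2 and 3 and 118 and 128 FPKM in libraries 4 and 5. With doxorubicin they were 9.05 and 9.87 FPKM against 40.5 and 40.5 FPKM. The sets did not overlap in either treatment, and the mean difference was 2.16 on the log2(FPKM + 1) scale, or 4.45-fold. Trib3, a pseudokinase that is itself a CHOP and ATF4 target, was at 19.9 and 29.4 FPKM against 92.7 and 97.8 FPKM in medium. With doxorubicin it was at 3.89 and 5.44 FPKM against 23.7 and 24.0 FPKM. Its difference, 2.04, was of nearly the same size in medium (1.93) as with the drug (2.15).

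The upstream factor Atf4 itself differed less, by 0.62. It was at 217 and 238 FPKM in libraries 2 and 3 and 316 and 309 FPKM in 4 and 5 in medium, and at 120 and 131 against 220 and 213 FPKM with doxorubicin. Atf5, a related factor that is translated under the same control, was at 26.4 and 27.5 against 63.6 and 62.1 FPKM in medium and 19.2 and 18.7 against 38.8 and 37.0 FPKM with the drug. Nupr1, a small stress-induced chromatin protein, was at 34.2 and 43.5 against 83.8 and 82.1 FPKM in medium and 14 and 18.2 against 47.7 and 43.3 FPKM with doxorubicin. In each of these the 2 sets were apart in both treatments. Ppp1r15a encodes GADD34, which returns eIF2 to its unphosphorylated form. It was at 7.75 and 7.91 against 21.9 and 26.2 FPKM in medium, but at 6.05 and 7.0 against 9.73 and 9.89 FPKM with doxorubicin, so its difference was 1.5 without and 0.53 with the drug. Chac1, which degrades glutathione, had the reverse shape. In medium it was at 10.3 FPKM in library 2 and 13.2 FPKM in each of the other 3, and with doxorubicin it was at 1.74 and 2.24 against 9.85 and 9.58 FPKM.

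Enzymes and transporters of the amino acid supply were also higher in libraries 4 and 5. Cth, which makes cysteine from cystathionine, was at 24.2 and 31.3 against 68.8 and 66.7 FPKM in medium and 10.2 and 11.4 against 26.5 and 26.1 FPKM with doxorubicin. Asns, asparagine synthetase, was at 124 and 137 against 197 and 194 FPKM in medium and 75.0 and 83.8 against 128 and 120 FPKM with the drug. Pck2, the mitochondrial PEP carboxykinase, differed by 1.01 and Slc1a4, a carrier of neutral amino acids, by 1.07. The serine pathway enzymes were separated but short of 1.5-fold, with Phgdh at 392 and 394 against 486 and 463 FPKM in medium. The 2 listed genes tested but not separated were Chac1 and Mthfd1l, a mitochondrial folate enzyme. Atf4, Asns, Pck2, Slc1a4, Phgdh and Mthfd1l, and Pycr1, which is described with its promoter, were named after their values were seen.

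ATF4 binds with a C/EBP partner to a composite element whose core is TGATGNAA. The letters were searched on both strands of the RefSeq promoter windows (250 bases before to 50 after each start, GRCm38.p6), which were found for 8008 of the 9824 tested genes. They occurred in 215 of the 8008 windows (2.68%), in 8 of the 28 list members that have one (28.6%), in 7 of the 26 separated members (26.9%) and in 6 of the 15 called members (40%). The list was made of known ATF4 targets, so these shares describe the list and not the difference between the sets. The 8 were Asns, Chac1, Nupr1, Pck2, Pycr1, Slc1a4, Slc7a11 and Trib3. A match describes the letters of the window and was not tested as a binding site. Stretches of 4 of the called members are shown so that the element can be seen in its place, read on the strand of the gene, with the match in capitals in whichever direction it lies. They are Nupr1 at chr7:126625533-126625620 (minus strand), Pck2 at chr14:55540123-55540210 (plus), Pycr1 at chr11:120643804-120643891 (minus) and Asns at chr6:7693210-7693272 (minus).
Nupr1: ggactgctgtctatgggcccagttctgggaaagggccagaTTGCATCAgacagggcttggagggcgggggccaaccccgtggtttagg
Pck2: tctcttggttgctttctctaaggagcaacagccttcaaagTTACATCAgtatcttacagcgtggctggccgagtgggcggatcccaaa
Pycr1: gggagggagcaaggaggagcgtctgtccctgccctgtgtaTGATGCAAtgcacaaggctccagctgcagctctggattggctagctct
Asns: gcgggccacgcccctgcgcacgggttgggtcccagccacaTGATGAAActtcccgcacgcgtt
In Asns the match began 23 bases before the annotated start, and in Nupr1, Pck2 and Pycr1 it began 110, 103 and 103 bases before it. Pycr1, the last enzyme of proline synthesis, was the lowest of the 4 in level, at 1.92 and 2.11 against 3.96 and 3.75 FPKM in medium.

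The cytosolic aminoacyl-tRNA synthetases, which load amino acids onto tRNAs and include many ATF4 targets, were mostly higher in libraries 4 and 5. Of 20 tested, 12 were separated higher, 3 lower and 3 were called higher, with list medians of 0.29 in medium and 0.12 with doxorubicin. Sars was at 97.8 and 105 FPKM in libraries 2 and 3 and 172 and 175 FPKM in 4 and 5 in medium, and at 80.1 and 80.5 against 114 and 109 FPKM with doxorubicin. Aars was at 85.1 and 94.3 against 144 and 146 FPKM in medium and 61.0 and 61.7 against 87.8 and 88.5 FPKM with the drug. Cars differed by 0.45 in medium and 0.75 with doxorubicin. The synthetases separated lower were Farsa, Kars and Hars, named after their values were seen, with differences of -0.15, -0.11 and -0.08.

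**Figure D2:**
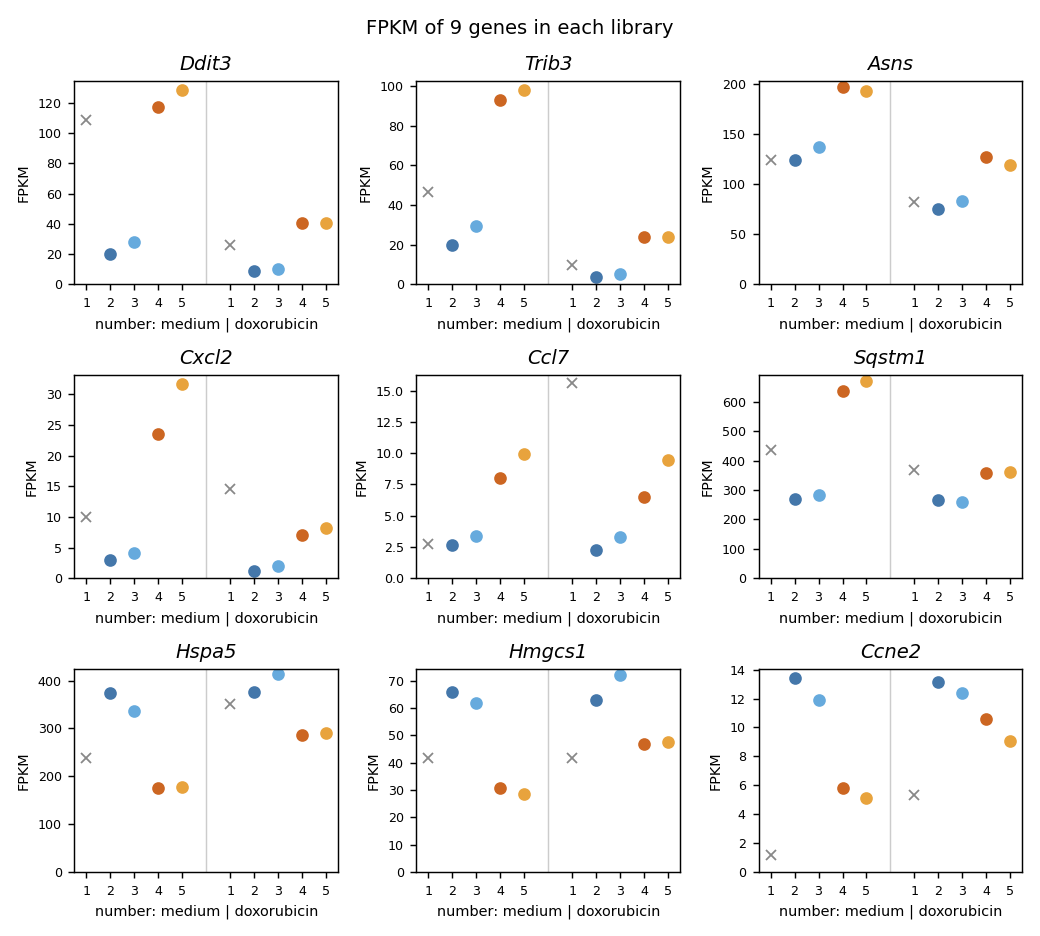
FPKM of 9 genes in each library, with medium on the left and doxorubicin on the right of each panel and the library number on the x axis. Blue points are libraries 2 and 3, orange points 4 and 5, and grey crosses the libraries numbered 1, which entered no fit. Ddit3, Trib3, Asns, Cxcl2, Ccl7 and Sqstm1 are higher in 4 and 5, and Hspa5, Hmgcs1 and Ccne2 lower.

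Secreted inflammatory factors were the next group. Of 20 tested chemokines and cytokines among 29 listed, 12 were separated higher, 2 lower and 7 were called higher. Cxcl2, a chemokine that draws neutrophils, had the largest difference of all called genes with 2.22, or 4.67-fold. It was at 2.89 and 4.02 FPKM in libraries 2 and 3 and 23.5 and 31.7 FPKM in 4 and 5 in medium, and at 1.14 and 1.97 against 7.03 and 8.14 FPKM with doxorubicin. Ccl7, which draws monocytes, was at 2.65 and 3.35 against 8.03 and 9.98 FPKM in medium and 2.27 and 3.27 against 6.46 and 9.42 FPKM with the drug. In both genes library 5 lay above library 4 in each treatment and library 3 above library 2. Csf3, the granulocyte growth factor, differed by 1.24 at a low level of 0.347 to 5.55 FPKM, and by 1.94 with a pseudocount of 0.1. Ccl4, a chemokine for T cells and monocytes, differed by 0.71 and Csf1, the growth factor that macrophages depend on, by 0.75. Other members of the list did not follow. Tnf was at 30.5 and 34.1 against 28.7 and 31.7 FPKM in medium and Mif at 1223 and 1180 against 1166 and 1153 FPKM, and these 2 were named after their values were seen. Another 9 listed genes, with a mean under 1 FPKM, were not tested.

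NF-kB is the factor that drives many of these chemokines. The list of its subunits and feedback inhibitors, which also holds the enzyme gene Ptgs2, differed in the same direction. Of 20 tested, 11 were separated higher, 1 lower and 2 were called higher, with medians of 0.30 in medium and 0.17 with doxorubicin. Ptgs2, the inducible cyclooxygenase, was at 1.30 and 1.53 against 4.94 and 5.83 FPKM in medium and 0.988 and 1.15 against 2.23 and 2.43 FPKM with doxorubicin. Nfkbiz, a nuclear IkB protein, was at 24.0 and 27.7 against 48.3 and 50.5 FPKM in medium and 22.6 and 24.8 against 32.1 and 32.5 FPKM with the drug. The letters GGGANNNCC of an NF-kB site were found in 27.6% of all windows, in 9 of the 16 windows of this list and in 4 of the 12 of the chemokine list.

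Of 25 tested immediate early genes, which respond within minutes to growth factors and stress, 15 were separated higher, 2 lower and 6 were called higher. Atf3, a stress-induced factor that is also an ATF4 target, was at 62.7 and 63.3 against 112 and 112 FPKM in medium and 45.2 and 48.6 against 68.8 and 70.4 FPKM with doxorubicin. Dusp4, a phosphatase of MAP kinases, was at 18.1 and 18.7 against 32.5 and 30.9 FPKM in medium and 16.5 and 17.4 against 24.8 and 23.4 FPKM with the drug. Ier2 differed by 0.64. Egr3 (0.89) and Klf4 (0.60) were at levels under 4 FPKM, and with a pseudocount of 0.1 their differences were 1.41 and 0.96. Fos went the other way in both treatments, with 11.1 and 11.8 against 10.4 and 10.6 FPKM in medium, and was named after its values were seen.

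Further called genes came from lipid handling, autophagy and the response to low oxygen. The counts of these lists stand beside 26.1% of all tested genes separated higher, 17.5% lower and 1.14% called higher. Soat2, which esterifies cholesterol, was at 2.52 and 4.32 against 13.2 and 14.8 FPKM in medium and 0.939 and 1.10 against 3.82 and 3.75 FPKM with doxorubicin. Abca1, the pump that exports cholesterol, was at 3.69 and 4.53 against 7.99 and 8.36 FPKM in medium and 3.45 and 4.40 against 7.87 and 8.76 FPKM with the drug. It was the 1 called gene of 13 tested LXR targets and cholesterol efflux genes, of which 8 were separated higher and 1 lower. Sqstm1, the autophagy receptor p62, was called with a difference of 1.24 in medium and 0.45 with doxorubicin. It was at 270 and 284 against 637 and 672 FPKM without and at 266 and 259 against 358 and 361 FPKM with the drug. Of the 25 tested autophagy genes 16 were separated higher, 4 lower and 1 was called.

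Among 32 tested genes of glycolysis and hypoxia, 17 were separated higher, 4 lower and 3 were called, with medians of 0.07 in medium and 0.19 with doxorubicin. Ndrg1, a hypoxia and stress marker, was at 39.9 and 41.5 against 80.0 and 82.0 FPKM in medium and 21.3 and 25.1 against 45.7 and 47.8 FPKM with the drug. Vegfa, the endothelial growth factor, differed by 0.64 and Ero1a, an oxidase of the endoplasmic reticulum that hypoxia and CHOP induce, by 0.72. Of 33 tested p53 targets, 14 were separated higher, 1 lower and 3 were called higher, which were Gadd45a, Bbc3 and Sesn2. Over all tested genes these shares were 26.1%, 17.5% and 1.14%. Gadd45a, a growth arrest gene that ATF4 also drives, was at 2.72 and 3.10 against 12.5 and 16.7 FPKM in medium and 1.48 and 1.48 against 3.93 and 4.17 FPKM with doxorubicin. The p53 targets as a list had medians of 0.06 and 0.15, against 0.03 and 0.03 over all tested genes.

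The 12 largest differences also held genes outside these lists. Lcn2, an iron-binding acute phase protein, was at 19.5 and 23.7 against 76.8 and 96.0 FPKM in medium and 12 and 15.6 against 23.6 and 29.8 FPKM with the drug. Aqp9, a channel for water and glycerol, was at 5.23 and 7.45 against 17.2 and 16.7 FPKM in medium and 1.30 and 1.78 against 6.94 and 5.48 FPKM with doxorubicin. Gdf15, a stress hormone of the TGF-beta family, was at 7.69 and 9.60 against 21.3 and 21.1 FPKM in medium and 7.79 and 8.27 against 20.8 and 21.2 FPKM with the drug. In these 8 libraries the Gdf15 values thus differed between the sets and hardly between the treatments. In the libraries numbered 1, Gdf15 was at 29.4 FPKM in medium and 49.5 FPKM with doxorubicin. Cox6a2, a respiratory chain subunit best known from muscle, was at 1.91 and 2.48 against 10.8 and 12.9 FPKM in medium and 0.767 and 1.17 against 2.64 and 2.74 FPKM with doxorubicin. It was the 1 called gene among 78 tested nuclear-encoded respiratory chain subunits, of which 5 were separated higher and 29 lower. Nfil3 (0.91) and Bhlhe40 (0.59), both transcription factors tied to the circadian clock, were the called genes among 12 of that list.

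Endoplasmic reticulum chaperones were lower in libraries 4 and 5. Of 25 tested genes of the chaperones and the unfolded protein response, 15 were separated lower and 5 higher, and 4 were called lower and 1 higher. The list median was -0.48 in medium and -0.16 with doxorubicin. Hspa5, which encodes BiP, the main chaperone of the compartment, was at 375 and 337 FPKM in libraries 2 and 3 and 176 and 178 FPKM in 4 and 5 in medium. With doxorubicin it was at 377 and 413 against 285 and 291 FPKM. Calr, the lectin chaperone calreticulin, was at 498 and 465 against 264 and 260 FPKM in medium and 557 and 577 against 433 and 440 FPKM with the drug. The sets of both genes stayed apart in both treatments, and the gap was smaller with doxorubicin. Manf, a secreted survival factor, was at 186 and 164 against 96.2 and 97.6 FPKM in medium and 176 and 179 against 136 and 139 FPKM with doxorubicin. Sdf2l1, a partner of BiP, differed by -0.83 in medium and -0.38 with the drug. The 5 members separated higher were Ero1a, Herpud1, Sel1l, Atf6 and Derl1. Of these, Herpud1, Sel1l and Derl1 serve the disposal of misfolded proteins and Atf6 is the sensor of the compartment, and all but Ero1a were named after their values were seen.

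ATF6 and XBP1 act through the endoplasmic reticulum stress element, which is CCAAT and CCACG set apart by 9 bases. This spaced pair, searched on both strands after the values were seen, was found in 13 of the 8008 windows (0.162%) and in 9 of the 21 list members that have one (42.9%). The list was made of known members of the response, so the share describes the list and not the difference between the sets. The 9 were Calr, Canx, Creld2, Dnajc3, Ero1b, Hsp90b1, Hspa5, Pdia6 and Syvn1, with set differences from -0.73 (Hspa5) to -0.06 (Syvn1). The elements of the 3 with the largest difference are printed with both ends in capitals, read on the strand of the gene. They are Hspa5 at chr2:34772013-34772055 (plus strand), Calr at chr8:84847063-84847105 (minus) and Creld2 at chr15:88819508-88819550 (plus), and that of Canx, at chr11:50325788-50325830 (minus), is added for a member that was not separated.
Hspa5: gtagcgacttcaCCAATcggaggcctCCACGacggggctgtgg
Calr: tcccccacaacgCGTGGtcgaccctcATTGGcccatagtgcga
Creld2: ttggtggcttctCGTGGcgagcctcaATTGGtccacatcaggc
Canx: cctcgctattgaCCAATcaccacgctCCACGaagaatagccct
In Hspa5 and Canx the element reads forward and in Calr and Creld2 in reverse. Canx, the membrane lectin calnexin, was at 207 and 206 against 181 and 184 FPKM in medium and at 200 and 205 against 210 and 201 FPKM with doxorubicin, so its sets overlapped with the drug.

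Chaperones of the cytosol were lower too. Of 15 tested heat shock genes, 10 were separated lower, 0 higher and 0 were called, with medians of -0.26 in medium and -0.18 with doxorubicin. Hspa8, the constitutive HSP70, was at 1446 and 1309 against 815 and 760 FPKM in medium and 1526 and 1639 against 1306 and 1301 FPKM with the drug. Hsp90aa1 was lower in 4 and 5 in medium alone, at 515 and 497 against 423 and 411 FPKM, and Hsp90ab1 differed by 0.02 in each treatment.

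Genes of sterol synthesis were lower in libraries 4 and 5 in near unison. None of the 22 tested genes had a higher mean, 19 were separated lower and 1 was called, and the medians were -0.53 in medium and -0.28 with doxorubicin. Hmgcs1, which makes the precursor of mevalonate, was at 65.7 and 62.0 FPKM in libraries 2 and 3 and 30.7 and 28.6 FPKM in 4 and 5 in medium. With doxorubicin it was at 62.8 and 72.2 against 46.8 and 47.6 FPKM. Acat2, a cytosolic thiolase of the same route, lay outside the list and was called, at 30.1 and 28.8 against 15.0 and 13.3 FPKM in medium and 35.1 and 31.7 against 25.8 and 24.9 FPKM with the drug. The SREBP retention gene Insig1 was separated but not called, with a difference of -0.41, and was named after its values were seen. Srebf2, which encodes SREBP2 itself and was likewise named afterwards, differed by -0.13 in medium and -0.01 with doxorubicin.

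The letters TCACNCCAC of a sterol regulatory element were found in 1.37% of all windows and in 1 of the 16 windows of the list, that of Hmgcs1. The stretch is at chr13:119690174-119690262 (plus strand), with the match in capitals.
Hmgcs1: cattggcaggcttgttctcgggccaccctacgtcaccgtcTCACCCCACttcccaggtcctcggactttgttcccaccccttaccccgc
Fatty acid synthesis, which SREBP1 controls, differed less, with 7 of 16 tested genes separated lower, 0 higher and 0 called, and medians of -0.16 and -0.07. Acly, the enzyme that supplies cytosolic acetyl-CoA to both routes, was at 95.8 and 90.9 against 76.4 and 72.9 FPKM in medium.

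The G1/S part of the cell cycle was lower, and mitosis was shifted lower by less. Of 43 tested genes of DNA replication and G1/S, 28 were separated lower, 1 higher and 2 were called lower, with medians of -0.27 in medium and -0.13 with doxorubicin. The called genes were those of the E-type cyclins, which activate CDK2 at the start of S phase. Ccne1 was at 36.2 and 33.2 against 18.7 and 17.2 FPKM in medium and 41.3 and 43.1 against 29.0 and 29.6 FPKM with doxorubicin. Ccne2 was at 13.5 and 11.9 against 5.79 and 5.10 FPKM in medium and 13.2 and 12.4 against 10.6 and 9.05 FPKM with the drug. Of 40 tested genes of G2/M and mitosis, 12 were separated lower, 4 higher and 0 were called, and the medians were -0.07 and -0.01. Over all tested genes 17.5% were separated lower and 26.1% higher, and the medians were 0.03 and 0.03. Cdc20, an activator of the anaphase-promoting complex, was at 123 and 121 against 117 and 118 FPKM in medium and 128 and 133 against 115 and 112 FPKM with doxorubicin.

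Other genes called lower had no list in common. Dmpk, a kinase best known from myotonic dystrophy, was at 2.77 and 2.88 against 0.764 and 0.984 FPKM in medium and 3.15 and 3.86 against 1.55 and 1.38 FPKM with the drug. Olfml3, a secreted glycoprotein known from microglia, was at 2.90 and 2.48 against 1.07 and 1.09 FPKM in medium and 3.71 and 2.92 against 1.40 and 1.48 FPKM with doxorubicin. Both were near the lower limit of the tested range, where the added pseudocount shrinks a difference. Id3, an inhibitor of basic helix-loop-helix factors, was at 21.2 and 17.3 against 13.3 and 12.8 FPKM in medium and 17.6 and 17.1 against 7.07 and 9.51 FPKM with doxorubicin. It was, with 1 other gene, the exception among the 18, with a larger gap with the drug than without. Slc39a10, a zinc importer, was at 12.8 and 12.2 against 5.32 and 5.59 FPKM in medium and 13.9 and 13.7 against 10.7 and 9.89 FPKM with doxorubicin. Fkbp11 (-0.64), a prolyl isomerase of the secretory route, Tuba4a (-0.63), an alpha-tubulin, and Glrx (-0.63), glutaredoxin, completed the 12 largest.

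The interferon list stayed near the level of all genes, and the lysosomal, macrophage and NRF2 lists held many small differences. Of 27 tested interferon-stimulated genes, 3 were separated higher, 3 lower and 0 were called, with medians of -0.09 in medium and 0.02 with doxorubicin. Bst2, which tethers budding viruses, was at 135 and 139 against 165 and 160 FPKM in medium, and Ifitm3, which blocks viral entry, at 40.5 and 41.0 against 34.7 and 35.8 FPKM. Of 40 tested lysosomal genes, 17 were separated higher, 2 lower and 0 were called, with medians of 0.10 and 0.09. Gpnmb, a lysosomal glycoprotein of macrophages, was at 1086 and 1075 against 1333 and 1324 FPKM in medium and 1310 and 1351 against 1568 and 1526 FPKM with doxorubicin, differences of 0.30 and 0.22. Of 30 tested genes of macrophage identity, 13 were separated higher, 7 lower and 2 were called higher, both of them IgG receptors, Fcgr3 (0.70) and Fcgr2b (0.62). Another IgG receptor, Fcgr1, differed by -0.22. The counts of these lists stand beside 26.1% of all tested genes separated higher, 17.5% lower and 1.14% called higher. Of 27 tested NRF2, glutathione and pentose phosphate genes, 15 were separated lower, 5 higher and 0 were called, with medians of -0.17 and -0.07, against 0.03 and 0.03 over all tested genes.

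**Figure D3:**
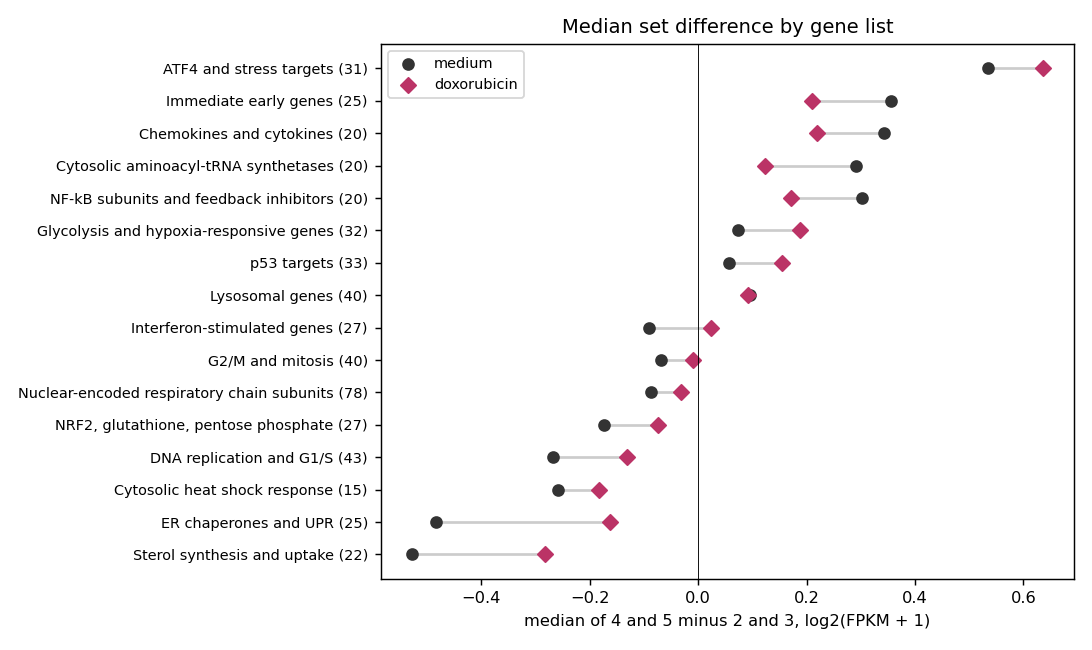
Median over the tested members of each list of the difference between the sets (4 and 5 minus 2 and 3, log2(FPKM + 1)) in medium (black) and with doxorubicin (red diamonds), with the number of tested members in parentheses. The ATF4 list lies at 0.53 and 0.64, the sterol list at -0.53 and -0.28, and the interferon list on both sides of 0.

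The libraries numbered 1 belonged to neither set. For the 112 genes called higher, medium library 1 lay beyond the 4 and 5 side for 41, within or between the sets for 51, and beyond the 2 and 3 side for 20. With doxorubicin these numbers were 46, 63 and 3. For the 18 genes called lower, it lay beyond the 4 and 5 side for 8 in medium and 11 with the drug, and beyond the 2 and 3 side for 0. Ddit3 in medium library 1 was at 109 FPKM, close to libraries 4 and 5, and Ccne1 at 5.39 FPKM, below all others. The interferon list, in contrast, lay 1.04 below the mean of the 8 in medium library 1, while medium libraries 2 to 5 lay between 0.07 and 0.21 below it. The DNA replication list of medium library 1 also lay below those of libraries 2 to 5.

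**Figure D4:**
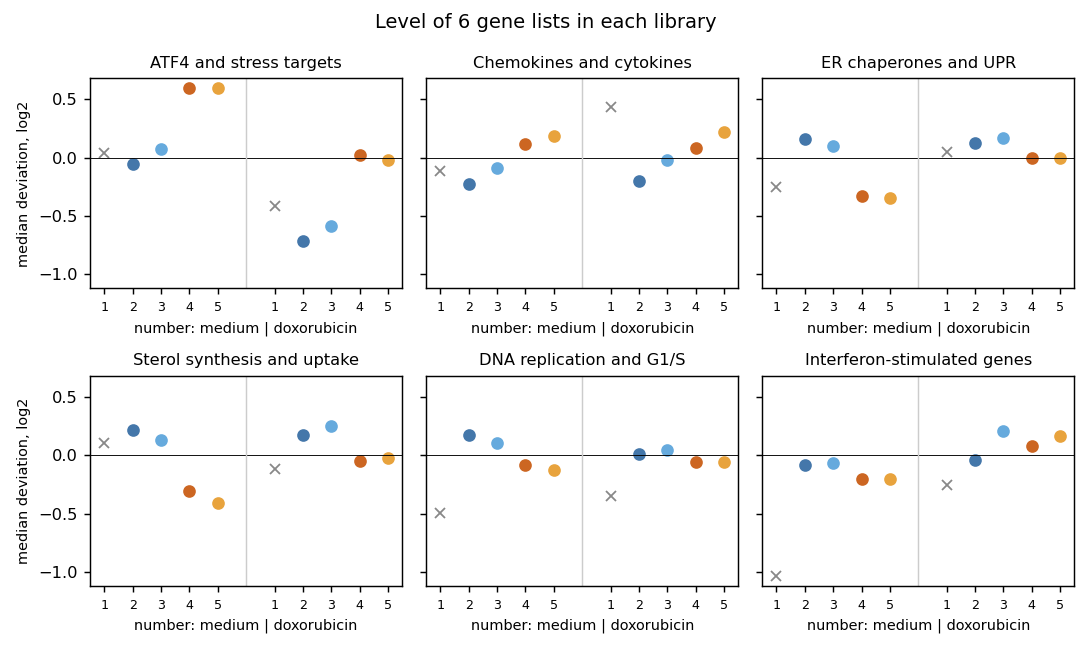
Median over the tested members of 6 lists of the deviation from the gene's mean over the 8 libraries (log2(FPKM + 1)), by library number in medium (left of each panel) and doxorubicin (right). Blue is 2 and 3, orange 4 and 5, and grey crosses the libraries numbered 1, and the interferon list of medium library 1 is at -1.04.

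Whether the difference between the sets had the same size in both treatments was tested with limma as a set by treatment interaction. This contrast is orthogonal to the one that chose the sets. The test takes the 2 libraries of a set and treatment as independent, but they were put together because they were alike and the labels do not say that they were separate cultures, so its p-values are likely too small. At an adjusted p under 0.05, 156 genes passed (1.59%), 74 with a positive and 82 with a negative coefficient, and 1820 had an unadjusted p under 0.05. With the replicate number as a block, so that libraries with the same number were treated as paired, 249 passed, 148 of them shared. In 65 of the 74 and 77 of the 82 the gap between the sets was wider in medium. Over all tested genes the gap was also wider in medium, with a median absolute difference of 0.138 against 0.105 with doxorubicin. The count rested on single libraries. It was 14 without medium library 2, 62 without medium 3, 56 without medium 4 and 20 without medium 5, and 21 without doxorubicin 4 and 31 without doxorubicin 5. It was 274 without doxorubicin library 3, and 138 without doxorubicin 2.

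Among the 156, 7 of the 25 tested endoplasmic reticulum genes passed, 5 of 22 sterol genes, 3 of 15 heat shock genes and 5 of 43 replication genes, against 1.59% of all genes. All but 1 of these 20 had a positive coefficient, which for genes lower in libraries 4 and 5 means a smaller gap with the drug. Without medium library 2, 1 endoplasmic reticulum gene and 0 of the other 3 lists still passed. Hspa5, for which limma gave an interaction of 0.55 (adjusted p = 0.0195), was raised by doxorubicin by 0.70 in libraries 4 and 5 and by 0.15 in 2 and 3. Both libraries 4 and 5 with the drug stood above both without it, and the same held for 2 and 3. Of the ATF4 list 4 of 31 passed, 2 in each direction, and 8 with the replicate block.

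The 6 largest coefficients in each direction are named. Chac1 had the largest, 1.68 ± 0.15 (SE, limma adjusted p = 0.00430, 7.56e-06 to 0.0802 over the alternatives), with doxorubicin effects of -2.09 in libraries 2 and 3 and -0.40 in 4 and 5. Ddit4, an inhibitor of mTORC1 that ATF4 and p53 both drive, followed with 0.88 ± 0.12 (adjusted p = 0.0157, 0.00143 to 0.129 over the alternatives). It was at 37.0 and 38.2 FPKM in libraries 2 and 3 in medium and 21.5 and 26.6 FPKM with doxorubicin, and at 45.1 and 44.9 FPKM and then 50.4 and 56.9 FPKM in 4 and 5. Its sign thus differed, lower with the drug in 2 of 2 libraries and higher in 2 of 2. Abhd4, a lipase of N-acyl phospholipids (0.72), S100a11, a calcium-binding protein (0.71), Ccne2 (0.73) and Lpin1, a phosphatidate phosphatase (0.67), complete the positive side. S100a11 was at 292 and 292 against 174 and 173 FPKM in medium and at 318 and 343 against 306 and 339 FPKM with doxorubicin, so a clear gap was followed by an overlap.

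On the negative side, doxorubicin lowered the gene more in libraries 4 and 5. Cox6a2 had the largest, -1.09 ± 0.17 (SE, limma adjusted p = 0.0230, 0.00106 to 0.130 over the alternatives), with effects of -0.70 and -1.79. Ppp1r15a had -0.97 ± 0.12 (adjusted p = 0.00800, 0.00106 to 0.107 over the alternatives), with effects of -0.23 and -1.21. Acot2, a mitochondrial acyl-CoA thioesterase, was at 5.05 and 6.03 against 11.6 and 14 FPKM in medium and at 4.96 and 5.40 against 5.17 and 5.50 FPKM with the drug, so its sets overlapped there. Lcn2 (-1.04), Angptl6, an angiopoietin-like secreted factor (-1.01), and Gadd45a (-0.96) complete the negative side. Unlike those of Acot2, their sets stayed apart with the drug. All 12 kept the sign of the coefficient in each alternative run. None of the 12 passed when the filter on low FPKM was left out. With a pseudocount of 0.1, Gadd45a, Cox6a2, Lcn2 and Angptl6, all on the negative side, lost the call (limma adjusted p from 0.0510 to 0.0994). Chac1 and S100a11 passed with any 1 library left out, while the other 10 did not pass without medium library 2, 7 of the 12 did not without medium 5, 7 not without doxorubicin 4 and 6 not without doxorubicin 5. Fewer lost the call without medium 3 (3), medium 4 (2) or doxorubicin 3 (1).

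**Figure D5:**
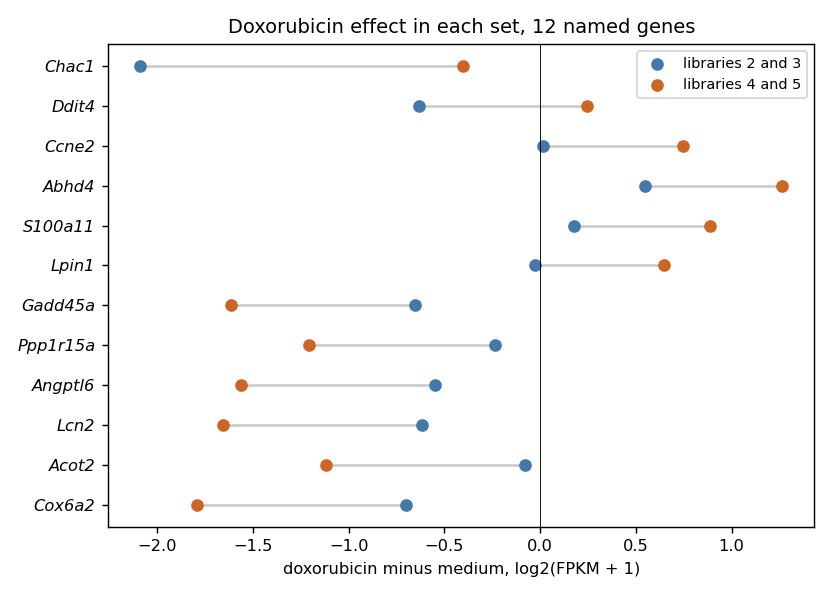
Doxorubicin effect (doxorubicin minus medium, log2(FPKM + 1)) in libraries 2 and 3 (blue) and in 4 and 5 (orange) for the 12 genes with the largest interaction, 6 in each direction. For Chac1 the effect is -2.09 and -0.40 and for Cox6a2 -0.70 and -1.79, and Ddit4 lies on both sides of 0.

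The set also bore on how many genes the drug was seen to change. With the set as a covariate, limma called 1199 genes higher with doxorubicin (12.2%) and 2146 lower (21.8%) at an adjusted p under 0.05. Without that term 284 were higher and 275 lower in the same 8 libraries. As with the interaction, a term chosen from the values themselves lowers the residual spread, so the larger count is likely too high. The split also moved with scaling, to 1753 higher and 1594 lower under median-ratio scaling and 1609 and 1775 under upper-quartile scaling. Of the 31 tested ATF4 list genes, 26 fell with doxorubicin and 0 rose, with median effects of -0.62 in libraries 2 and 3 and -0.53 in 4 and 5. Of the 22 sterol genes, 13 rose and 0 fell, with medians of 0.06 and 0.33. Of the 25 endoplasmic reticulum genes, 13 rose and 5 fell, with medians of 0.03 and 0.27. Of the 27 interferon-stimulated genes, 17 rose and 1 fell, with medians of 0.17 and 0.32, though they differed little between the sets.

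Gene length and base composition were compared with the set difference for the 9646 tested genes matched to a GENCODE gene. Across genes, Spearman's rho with length was 0.13 in medium and 0.12 with doxorubicin. With GC content it was -0.04 in medium and -0.27 with doxorubicin, so among treated libraries genes of high GC content tended to be lower in 4 and 5. The 109 matched genes called higher had a median GC of 52.2% and the 18 called lower 51.8%, against 49.9% over all, and the part of base composition in the differences was not tested further.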

How the data were processed

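Poly(A) RNA of RAW264.7 cells was read in 10 libraries, 5 per treatment, and the authors deposited 1 table of FPKM values. The submitters' processing notes name the build GRCm39, while aligner, counter and annotation are not given in the sources used here. FPKM were not rescaled. Depth is unknown, since no step worth 1 read could be found among low values, and no count test was run. Columns were matched to samples by library name. Values were analysed as log2(FPKM + 1) for genes averaging at least 1 FPKM across the libraries numbered 2 to 5. The members and gene lists were chosen with earlier results of these data known. The difference between the sets is the mean of the difference in medium and that with doxorubicin. The interaction and the doxorubicin effect were fitted with limma 3.58.1 (trend, two-sided, Benjamini-Hochberg over all tested genes) in R 4.3.3, checked on simulated data, and all else in Python 3.11.15. A replicate is a library, and p-values measure only the spread between libraries, which may be technical.

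Replicate numbers come from the sample titles. Deviations from the treatment mean were correlated between the medium and the doxorubicin library of each number. This gave 0.605 (number 2), 0.505 (3), 0.536 (4) and 0.574 (5). Between different numbers of 1 set the correlations were 0.413 to 0.552, so much of this agreement is that of the sets. The numbers were taken as pairs only in the fits with the replicate block. Within a set, the difference between its numbers in medium correlated with that in doxorubicin at 0.21 for 2 and 3 and 0.060 for 4 and 5. The fits reported first have no block for the number.

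Named genes are the 12 largest differences in each direction among called genes, up to 5 called members of each list described (for lists with none, up to 3 with the highest mean FPKM) and the 6 largest interactions in each direction, leaving out predicted gene models. Genes described outside this rule were chosen after their values were seen, apart from those that lie at a limit, mark a cell type or hold a searched motif. Alternatives were another pseudocount, other filters, 2 scalings, a fold limit of 2, the replicate block, a fit with no set term and leaving out each library. Promoter windows came from RefSeq on GRCm38.p6 and were matched by symbol. Some genes are not reported here.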

Additional observations from a re-analysis of the deposited data

Results flagged for a closer look

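In groups of 4 libraries, 1 sample far from the rest was seen for 2 of the named genes. Trim25 with doxorubicin was at 45.2 FPKM in library 3 and between 41.1 and 41.5 FPKM in the others. Chac1 in medium was at 10.3 FPKM in library 2 and at 13.2 FPKM in the others. The criterion marks a small share of groups by chance alone, and many groups were examined.

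The doxorubicin effect differed between the sets, by the limma interaction test at an adjusted p under 0.05, for the 12 genes named for it. The coefficient, the effect in libraries 4 and 5 minus that in 2 and 3, was 1.68 for Chac1, 0.88 for Ddit4, 0.73 for Ccne2, 0.72 for Abhd4, 0.71 for S100a11 and 0.67 for Lpin1. It was -1.09 for Cox6a2, -1.04 for Acot2, -1.04 for Lcn2, -1.01 for Angptl6, -0.97 for Ppp1r15a and -0.96 for Gadd45a.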

How the results depend on the processing

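With a pseudocount of 0.1, 181 genes were called higher and 29 lower, and at 2-fold 23 and 0. The Pearson correlation between the differences in medium and with doxorubicin was 0.72 with a filter of 5 FPKM, 0.67 with no filter and 0.64 to 0.71 with 1 library left out. The limma interaction count of 156 became 278 under upper-quartile and 262 under median-ratio scaling, 249 with the replicate block, and 14 to 274 with 1 library left out. With no filter it was 0, with 2213 genes at an unadjusted p under 0.05. The count for the doxorubicin effect with set as covariate, 3345 genes, became 559 with no set term. The replicate block moved no other count by over 1.5 times, with 2823 genes for doxorubicin. Among list medians, 481 alternatives moved by less than the spread between libraries, 36 by more, and 1 reversed among medians larger than that spread, the nonsense-mediated decay factors at -0.00148 under median-ratio scaling. Counting small medians too, 10 of 37 lists, the interferon and osteoclast lists among them, lay on both sides of 0 over the alternatives. Differences of named genes moved by less than that spread in 1633 alternatives and by more in 20, with 0 reversed. Interactions of the 12 named genes kept the call in 125 alternatives and lost it in 52, and the cause was not tested. Depth is unknown, so genes of low FPKM carry an error that these values do not show.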
